A study of Rattus norvegicus with 9 samples.

Results

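The 9 genes described here are the salt-inducible kinases (SIKs) Sik1, Sik2 and Sik3, their upstream kinase Stk11 (LKB1), the CREB coactivators Crtc1, Crtc2 and Crtc3, and the transcription factors Creb1 and Crem. They were taken by symbol from a table of 37203 gene symbols, in all 9 libraries, and all 9 passed the filter on low counts among the 15482 genes tested. The set was chosen from measured values: it was built around Sik1 because Sik1 had been called at both stages in an earlier analysis of these libraries, and the other 8 genes were added for their known place in the same pathway. The values of Sik1 at either stage beside normal are therefore a description. Its calls, and counts that include it, are given further below, and nothing is read from them.

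RNA was sequenced from the superior mesenteric artery (SMA), the vessel that feeds most of the small intestine, of Sprague-Dawley rats aged 8 weeks. The libraries were 3 from normal rats, 3 from rats after 1 h of ischemia and 3 from rats after 4 h of ischemia, and the question was which genes differ from normal at an early and at a late stage. Ischemia was a hemorrhagic model, in which anaesthetised rats were bled through the femoral artery and the hours ran from completion of the model. The labels name no allele, sham operation or drug for any group.

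SIKs belong to the AMPK-related kinases and must be phosphorylated by LKB1 to be active. Active SIKs phosphorylate the CRTC coactivators and the class IIa histone deacetylases, which are then held in the cytoplasm by 14-3-3 proteins. When cAMP rises, protein kinase A phosphorylates the SIKs and inhibits them, CRTCs are freed with the help of the phosphatase calcineurin, enter the nucleus and join CREB on cAMP response elements (CREs). Sik1 and Crem are themselves known CREB target genes, and both encode proteins that can restrain CREB activity. In smooth muscle of the artery wall, cAMP is best known as a relaxing signal.

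Total counts per library were between 13114273 and 15504240. Values below are CPM, that is, counts scaled to a common library size, on library sizes scaled by the trimmed mean of M values, and fold changes are log2 values from the edgeR quasi-likelihood test, adjusted by Benjamini-Hochberg over every gene tested. Smooth muscle markers were present in every library, with a summed level of 10412 to 65403 CPM over 8 genes. The libraries also held RNA of other cells in unequal amounts. The 12 sympathetic neuron markers summed to 7803 CPM in 1 h replicate 1, 7766 CPM in 1 h replicate 3 and 7719 CPM in 4 h replicate 3, and to between 22.9 and 849 CPM in the other 6 libraries. The part of this neuronal RNA in the results was not tested beyond the values given beside them, and in whole tissue fewer cells of a type and less RNA per cell cannot be told apart. Levels were not compared between genes, because no transcript lengths were used.

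Sik1 was low in the normal arteries and high in every ischemic one. It stood at 8.85, 6.50 and 6.20 CPM in the 3 normal libraries, from 158, 89 and 84 counts. The 3 libraries of 1 h held 108.7, 134.2 and 94.2 CPM, and the 3 libraries of 4 h held 113.3, 169.9 and 138.3 CPM. The lowest ischemic library was thus far above the highest normal one, and both ischemic groups overlapped each other. The fitted log2 fold change from normal was 3.96 ± 0.26 (SE, n = 3 and 3) at 1 h, which is 15.6-fold, and 4.29 ± 0.26 at 4 h, which is 19.5-fold. Across 18 alternative settings it lay between 3.82 and 4.24 at 1 h and between 4.095 and 4.46 at 4 h. The highest 1 h value comes from leaving out the 3 libraries rich in neuron markers, where 1 h replicate 2 alone stands for its group. With the neuron score as a covariate in all 9 libraries the change was 3.98 at 1 h and 4.285 at 4 h. The means followed the order normal, 1 h, 4 h, and the last 2 did not differ beyond their spread. For 4 h against 1 h the log2 fold change was 0.32 ± 0.23, with a 95% interval of -0.20 to 0.84 (edgeR adjusted p = 0.856). The same libraries had served to choose the gene, so this contrast is not independent of the choice.

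**Figure D1:**
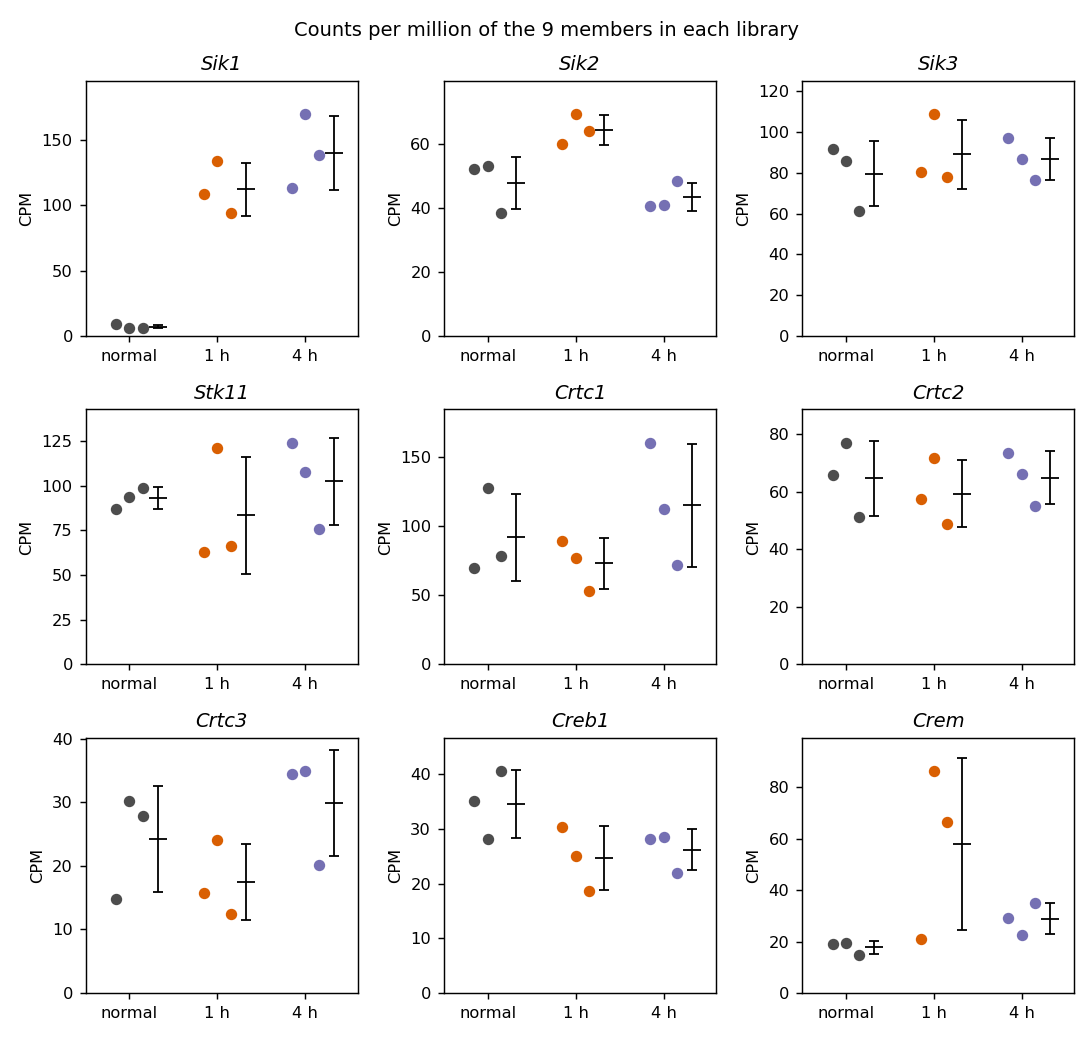
CPM of the 9 genes in each library, one panel per gene, with a vertical axis from 0. Points are libraries and the black bar beside them is the mean ± SD of 3; Sik1 lies at 6.20 to 8.85 CPM in normal libraries and at 94.2 to 169.9 CPM in ischemic ones, while for most other genes the groups overlap.

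The 250 bases before the start of each Sik gene are printed here because CREB acts through CREs in such regions. They come from the RefSeq promoter table of assembly GRCr8, are written 5′ to 3′ on the strand of the gene, and carry in capitals each short CRE motif, TGACG or CGTCA (the same motif read on the other strand).
Sik1, chr20:9958647-9958896, minus strand: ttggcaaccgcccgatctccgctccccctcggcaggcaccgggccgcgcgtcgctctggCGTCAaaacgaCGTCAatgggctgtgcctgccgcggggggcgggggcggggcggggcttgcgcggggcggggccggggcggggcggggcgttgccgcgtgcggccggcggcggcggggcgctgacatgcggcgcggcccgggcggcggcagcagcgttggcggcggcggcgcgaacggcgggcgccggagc
Sik2, chr8:60221651-60221900, minus strand: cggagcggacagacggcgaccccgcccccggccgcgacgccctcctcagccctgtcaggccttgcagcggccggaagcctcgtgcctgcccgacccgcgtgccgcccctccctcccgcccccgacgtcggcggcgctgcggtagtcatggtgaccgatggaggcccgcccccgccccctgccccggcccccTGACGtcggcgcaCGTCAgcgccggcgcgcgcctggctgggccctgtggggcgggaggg
Sik3, chr8:55208764-55209013, plus strand: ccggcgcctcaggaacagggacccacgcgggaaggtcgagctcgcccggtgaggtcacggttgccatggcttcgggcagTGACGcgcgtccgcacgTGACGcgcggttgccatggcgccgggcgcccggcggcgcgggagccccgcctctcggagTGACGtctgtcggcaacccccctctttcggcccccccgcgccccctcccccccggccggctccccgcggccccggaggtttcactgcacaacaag
Counting backwards from the start, the Sik1 window held the short motif at positions -191 and -180, the Sik2 window at -59 and -46, and the Sik3 window at -171, -154 and -95. None of these 3 windows held the full palindrome TGACGTCA. Of 33469 promoters in the table, 6097 (18.22%) held at least 1 short motif and 272 (0.8127%) held 3 or more. These windows are rich in G and C, with 82.8% in Sik1, 80.4% in Sik2 and 75.6% in Sik3. A motif is a match of letters and was not tested as a binding site.

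Sik2 did not follow Sik1. It encodes a SIK that is abundant in fat tissue, and the 6 adipocyte markers summed to 322 to 2000 CPM in normal libraries, 746 to 1789 CPM at 1 h and 262 to 869 CPM at 4 h. Their part in the Sik2 values was not tested. The Sik2 level was 52.3, 53.1 and 38.6 CPM in normal libraries, 60.2, 69.5 and 64.1 CPM at 1 h, and 40.8, 41.0 and 48.7 CPM at 4 h. All 3 libraries of 1 h were above all 6 others. The log2 fold change was 0.43 ± 0.17 at 1 h against normal (edgeR unadjusted p = 0.0382, adjusted p = 0.289), -0.14 ± 0.17 at 4 h against normal (adjusted p = 0.757) and -0.57 ± 0.17 at 4 h against 1 h (unadjusted p = 0.0107, adjusted p = 0.856). No contrast passed the threshold. The 4 h to 1 h difference kept its sign in all 18 alternatives, with values between -0.76 and -0.51 and adjusted p between 0.15 and 1. The order of the means was 4 h, normal, 1 h, and 4 h and normal overlapped. In the RefSeq gene table Sik2 overlaps the protein-coding gene Ppp2r1b, and whether counting used the strand is not given in the sources used here, so reads of both genes may be mixed.

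Sik3, a large SIK expressed in many tissues, showed no difference beyond its spread. It held 91.6, 86.0 and 61.2 CPM in normal libraries, 80.4, 108.6 and 78.0 CPM at 1 h and 96.8, 86.7 and 76.7 CPM at 4 h, and the 3 groups overlapped. Its log2 fold change was 0.16 ± 0.21 at 1 h, with a 95% interval of -0.33 to 0.65, and 0.12 ± 0.21 at 4 h, with an interval of -0.37 to 0.62 (edgeR adjusted p = 0.700 and 0.838). Changes of the size seen in Sik1 lay outside these intervals. Both values were small enough to change sign under some settings.

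The make-up of the Sik family counts was described next, since a share within a library does not depend on how libraries are scaled. Between 1436 and 4671 counts per library fell on the 3 Sik genes. Sik1 took 5.37% ± 0.79 of them in normal libraries (SD, n = 3), 42.1% ± 2.01 at 1 h and 51.6% ± 6.03 at 4 h. In single libraries the Sik1 share ran from 4.46% (exact 95% interval 3.60 to 5.46, counting error only) in normal replicate 2 to 57.1% (55.5 to 58.7) in 4 h replicate 2. Sik3 held 58.9% ± 1.13, 33.4% ± 1.30 and 32.3% ± 5.47 in the same order. Sik2 held 35.7% ± 1.28, 24.5% ± 2.47 and 16.2% ± 2.35. As shares of 1 total they must fall when Sik1 grows, so those of Sik2 and Sik3 carry no separate result. The counts are not divided by transcript length, so a share is one of reads and not of molecules.

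**Figure D2:**
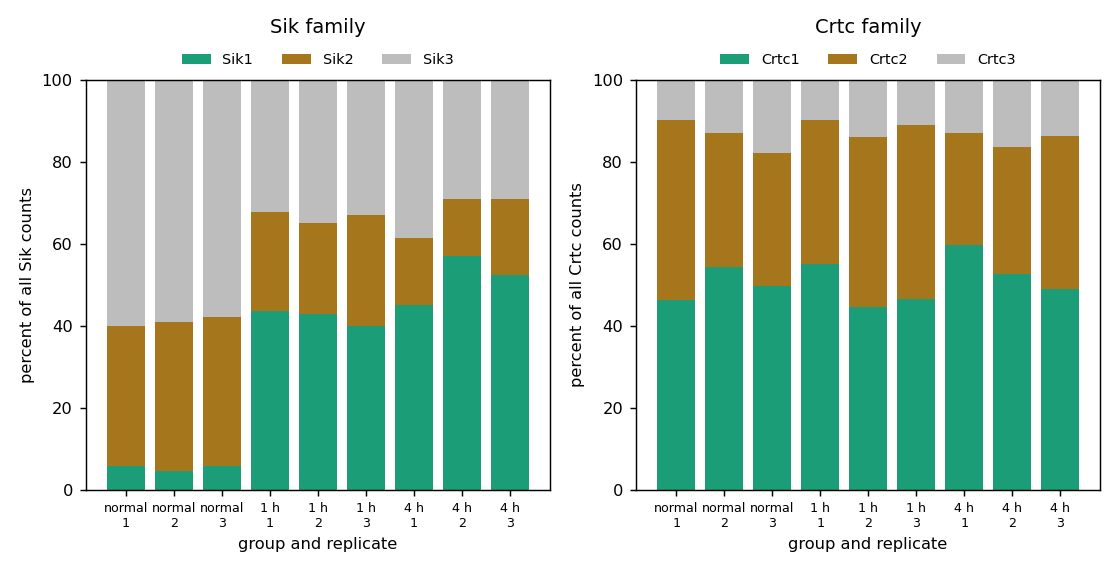
Stacked bars of the percent of all Sik counts (left) and all Crtc counts (right) that each gene takes in each library, with the vertical axis from 0 to 100. Sik1 takes 4.46% to 5.85% in normal libraries and 39.8% to 57.1% in ischemic ones. The Crtc shares overlap between the 3 groups, with Crtc2 at 27.4% to 43.9% over all libraries.

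Stk11 encodes LKB1, the kinase that switches SIKs on. Its level was 86.8, 93.9 and 98.9 CPM in normal libraries, 62.8, 121.1 and 66.2 CPM at 1 h and 124.0, 107.5 and 75.9 CPM at 4 h. The ischemic libraries spread on both sides of the normal ones, and the lowest 3 values were those of the 3 libraries rich in neuron markers. The log2 fold change was -0.16 ± 0.29 at 1 h and 0.14 ± 0.29 at 4 h (edgeR adjusted p = 0.783 and 0.875). With the neuron score as a covariate the value at 1 h was 0.16, and the part of neuronal RNA in these levels was not tested further. Stk11 overlaps the protein-coding gene Cbarp, with the same limit on strand as for Sik2.

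The LKB1 partners and its other substrates gave no call. The pseudokinase Strada, its relative Stradb and the scaffold genes Cab39 and Cab39l were all tested. Cab39 had the largest values of these 4, 0.29 ± 0.20 at 1 h and 0.45 ± 0.20 at 4 h, and at 4 h its 3 libraries (248, 235 and 219 CPM) were above the normal ones (131, 183 and 200 CPM). The lowest values were -0.09 for Strada at 1 h and -0.11 for Stradb at 4 h. Of 11 other LKB1 substrate kinases none was called at either stage. Nuak1, a kinase of cell adhesion and contractility, came nearest, with 32.6, 31.5 and 19.9 CPM in normal libraries, 12.0, 9.89 and 11.5 CPM at 1 h and 8.27, 8.46 and 11.6 CPM at 4 h. All 6 ischemic values were below the 3 normal ones, with log2 fold changes of -1.33 ± 0.25 and -1.57 ± 0.26 (edgeR adjusted p = 0.141 and 0.0712). At the upper end stood 2 brain kinases, Brsk2 with 1.62 ± 1.01 at 1 h and Brsk1 with 0.73 ± 0.50 at 4 h. Both had their highest levels in the 3 libraries rich in neuron markers, at 19.0 to 28.4 CPM for Brsk2 against 0.949 to 13.8 CPM elsewhere.

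The 3 CRTC genes encode the coactivators that SIKs keep out of the nucleus, and none passed the test at the RNA level in any contrast. Crtc1, best known from neurons, had 69.5, 127.8 and 78.4 CPM in normal libraries, 89.6, 76.8 and 53.1 CPM at 1 h and 160.4, 112.8 and 72.0 CPM at 4 h. Its log2 fold change was -0.33 ± 0.36 at 1 h and 0.32 ± 0.36 at 4 h (edgeR adjusted p = 0.626 and 0.729). Crtc2, best known for driving glucose production in liver, had the narrowest range of the 9 genes, from 48.8 CPM in 1 h replicate 3 to 76.9 CPM in normal replicate 2, which is 1.58-fold. Its values were 65.8, 76.9 and 51.0 CPM in normal libraries, 57.3, 71.8 and 48.8 CPM at 1 h and 73.4, 66.2 and 54.9 CPM at 4 h. The Crtc2 change was -0.12 ± 0.22 at 1 h, with a 95% interval of -0.63 to 0.38, and 0.0056 ± 0.22 at 4 h, with an interval of -0.50 to 0.51. The upper bound at 4 h corresponds to 1.42-fold.

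Crtc3, the coactivator known from fat and sympathetic signalling, held 14.7, 30.2 and 27.9 CPM in normal libraries, 15.7, 24.1 and 12.5 CPM at 1 h and 34.5, 34.9 and 20.2 CPM at 4 h. The groups overlapped, with changes of -0.48 ± 0.37 at 1 h and 0.30 ± 0.37 at 4 h (edgeR adjusted p = 0.484 and 0.762). For 4 h against 1 h the change was 0.65 ± 0.36 in Crtc1 and 0.78 ± 0.37 in Crtc3 (unadjusted p = 0.104 and 0.0675, adjusted p = 0.856 for both). In each of the Crtc genes the lowest 4 h value was that of replicate 3 and the lowest 1 h value that of replicate 3. Both libraries are rich in neuron markers. They also had the lowest smooth muscle marker sums of their groups, 22756 CPM at 4 h and 11930 CPM at 1 h. Among normal libraries that sum was lowest in replicate 1 (10412 CPM), where Crtc1 and Crtc3 were lowest but Crtc2 was not. With the neuron score as a covariate the 1 h changes were 0.26 for Crtc1, 0.14 for Crtc2 and 0.048 for Crtc3. With the smooth muscle score as a covariate they were -0.23, -0.11 and -0.34 ± 0.16. The part of either cell type in these levels was not tested.

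The shares of the 3 Crtc genes in single libraries overlapped between the groups. Crtc1 took 50.2% ± 4.05 of the Crtc counts in normal libraries, 48.7% ± 5.64 at 1 h and 53.8% ± 5.51 at 4 h, out of 1861 to 3245 counts per library. Crtc2 took 36.3% ± 6.51, 39.8% ± 4.00 and 31.9% ± 5.06, and Crtc3 took 13.5% ± 4.00, 11.5% ± 2.20 and 14.3% ± 1.81. In 9 two-sided exact permutation tests of these shares the lowest p was 0.2, for Crtc2 at 4 h against 1 h, where the shares differed by -7.95 percentage points, and the lowest Benjamini-Hochberg adjusted p was 0.72. With 3 libraries against 3 such a test cannot go below 0.1, so it could not have reached 0.05.

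Creb1, the CREB gene itself, did not pass the test in any contrast. It held 35.1, 28.2 and 40.6 CPM in normal libraries, 30.3, 25.1 and 18.6 CPM at 1 h and 28.2, 28.5 and 21.9 CPM at 4 h. The ischemic values lay in the lower part of the normal range or below it, and the groups overlapped. The log2 fold change was -0.49 ± 0.24 at 1 h (95% interval -1.03 to 0.056, edgeR unadjusted p = 0.0727, adjusted p = 0.320) and -0.40 ± 0.24 at 4 h (interval -0.95 to 0.14, adjusted p = 0.527). Its sign at both stages was the same in all 18 alternatives, between -0.66 and -0.34 at 1 h and between -0.59 and -0.27 at 4 h. Creb1 overlaps the protein-coding gene Mettl21a, with the same limit on strand.

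Crem, like Sik2, passed no contrast in the main test, and its highest levels were those of 2 libraries. It encodes activators and repressors of the CREB family, and an internal promoter yields ICER, a short repressor that cAMP induces. Its level was 18.9, 19.6 and 14.6 CPM in normal libraries and 21.1, 86.3 and 66.5 CPM at 1 h, so 1 h replicate 1 stood just above the normal range while the other 2 were far above it. At 4 h the values were 29.4, 22.6 and 34.9 CPM, all above normal and none near the upper 2 of 1 h. The neuron scores of the 1 h libraries (mean log2 CPM of the 12 markers) were 8.85, 5.62 and 8.84 in the same order, and their part in the Crem levels was not tested.

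The log2 fold change of Crem was 1.71 ± 0.46 at 1 h against normal (95% interval 0.66 to 2.77, or 3.28-fold) and did not pass the threshold (edgeR unadjusted p = 0.00547, adjusted p = 0.216). DESeq2 called it, with a change of 1.74 and an adjusted p of 0.0194, and over all settings the adjusted p ran from 0.0194 to 0.597. Without 1 h replicate 1 the value was 2.11 ± 0.25 (adjusted p = 0.0631) and without 1 h replicate 2 it was 1.31. At 4 h the change was 0.71 ± 0.45 (adjusted p = 0.550), and for 4 h against 1 h it was -1.001 ± 0.45 (unadjusted p = 0.0562, adjusted p = 0.856). The means ran in the order normal, 4 h, 1 h, and no neighbours in that order differed in a test that passed the threshold. Counts by symbol hold all Crem transcripts together, so ICER could not be told from the long forms. Crem, Sik3, Crtc1 and Crtc3 overlap long noncoding RNAs or pseudogenes in the RefSeq table, with the same limit on strand.

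The 2 internal start regions of Crem are shown because they were the only ones among the 12 start regions of the 9 genes that held the full CRE. Both are on the plus strand of GRCr8, from RefSeq, with the full site in capitals.
Crem start 2, chr17:58984547-58984796: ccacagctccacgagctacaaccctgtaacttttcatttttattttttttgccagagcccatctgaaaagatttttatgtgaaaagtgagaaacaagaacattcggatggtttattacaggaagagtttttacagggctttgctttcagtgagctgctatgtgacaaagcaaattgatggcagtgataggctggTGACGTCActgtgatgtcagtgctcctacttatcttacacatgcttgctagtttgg
Crem start 3, chr17:58985240-58985489: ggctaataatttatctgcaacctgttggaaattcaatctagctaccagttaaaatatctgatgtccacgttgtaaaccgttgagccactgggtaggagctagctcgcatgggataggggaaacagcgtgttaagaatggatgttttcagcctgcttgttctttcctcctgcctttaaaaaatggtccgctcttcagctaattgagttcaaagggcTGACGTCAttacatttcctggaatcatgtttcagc
The full palindrome TGACGTCA began at position -56 in the first of these windows and at -35 in the next. It occurred in 531 of 33469 promoters (1.587%). The short motif occurred in 8 of the 12 windows: those of Sik1, Sik2, Sik3 and Crtc2, 1 of the 2 of Creb1 and all 3 of Crem. Which Crem start was in use cannot be read from these counts, and no motif was tested for an effect on the level of its gene.

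**Figure D3:**
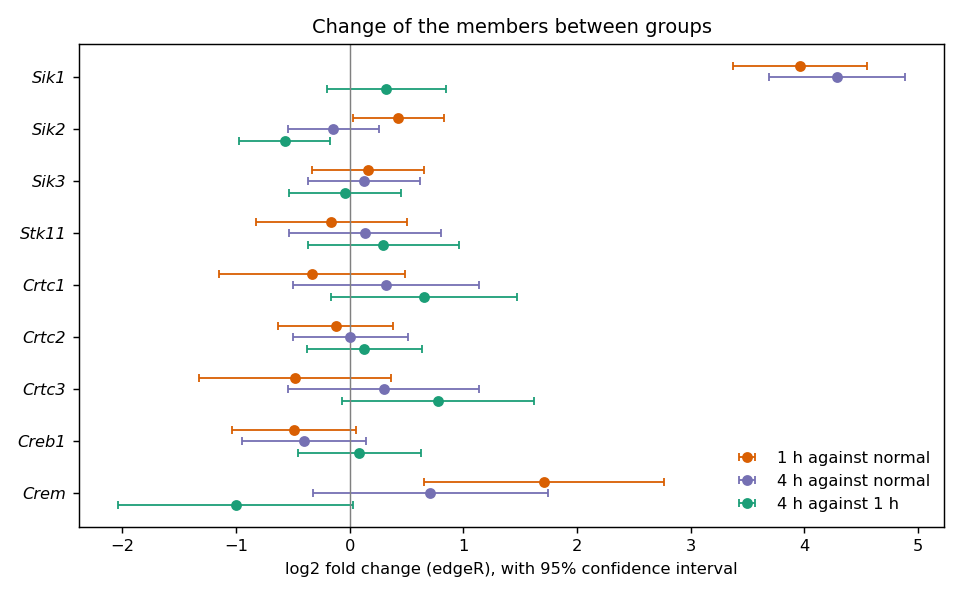
Log2 fold changes of the 9 genes from the edgeR fit for 1 h against normal, 4 h against normal and 4 h against 1 h, with 95% confidence intervals as bars and a line at 0. Sik1 lies at 3.96 and 4.29 from normal, Crem at 1.71 at 1 h with a wide interval, and most other intervals include 0.

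Read over the 9 genes, Sik1 was the 1 gene called at each stage (adjusted p under 0.05 and fold over 1.5). Over all 15482 genes 9 were called at 1 h (0.0581%) and 14 at 4 h (0.0904%), and since Sik1 was chosen for these contrasts nothing is read from its call. The call at 1 h was lost without normal replicate 2 or without normal replicate 3, and in either case 0 of all genes were called there. At an unadjusted p under 0.05 there were 3 of 9 at 1 h (Sik1, Sik2 and Crem) where 16.7% of all genes passed, and 1 of 9 at 4 h where 12.4% passed. Groups did not overlap in 3 of 9 genes at 1 h (26.3% of all genes) and in 2 of 9 at 4 h (18.7%). For 4 h against 1 h 0 of 9 were called by edgeR or by DESeq2, as were 0 of all genes (0%), with 1 of 9 at an unadjusted p under 0.05 (2.58% of all genes) and 1 of 9 not overlapping (6.24%), in both cases Sik2. The genes that did not overlap were Sik1, Sik2 and Crem at 1 h and Sik1 and Crem at 4 h, and beside such backgrounds nothing is read from these counts. The median log2 fold change of the 9 genes was -0.12 at 1 h, 0.14 at 4 h and 0.13 between the stages, beside -0.0076, 0.027 and -0.040 over all genes.

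Genes around the pathway were taken from 9 lists with 99 genes, chosen with earlier results of these data known. Of the 99 genes, 92 were tested. Of these 92, 1 was called at 1 h and 2 at 4 h, all higher than normal and all among known CREB target genes, and 0 were called between the stages by edgeR or DESeq2. At an unadjusted p under 0.05 there were 26 at 1 h, 20 at 4 h and 5 between the stages, beside 16.7%, 12.4% and 2.58% of all genes. The class IIa histone deacetylases, the other main SIK substrates, had no call. Their median change was -0.43 at 1 h and -0.13 at 4 h, from 0.24 for Hdac4 to -0.76 for Hdac5 at 1 h and from -0.03 for Hdac4 to -0.21 for Hdac9 at 4 h. The 3 values of Hdac5 at 1 h, 86.0, 81.6 and 58.4 CPM, were below the normal ones of 92.5, 137 and 153 CPM (edgeR adjusted p = 0.303).

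The 7 genes of 14-3-3 proteins, which hold phosphorylated CRTCs in the cytoplasm, had no call and a median change of 0.96 at 1 h and 0.51 at 4 h. An unadjusted edgeR p under 0.05 was reached by 6 of 7 at 1 h (16.7% of all genes). At 4 h it was reached by 1 of 7 (12.4% of all genes). For 4 h against 1 h it was reached by 0 of 7 (2.58% of all genes), with a median change of -0.29. Ywhah had the highest value at 1 h, with 111, 143 and 170 CPM in normal libraries, 617, 206 and 499 CPM at 1 h and 183, 153 and 521 CPM at 4 h (1.64 ± 0.56 at 1 h, edgeR adjusted p = 0.260). Its 3 high values were those of the 3 libraries rich in neuron markers. Ywhab, Ywhae and Ywhag were also highest in those 3 libraries, at 440 to 517, 382 to 389 and 494 to 594 CPM. In the other libraries they reached at most 240, 287 and 177 CPM. Ywhaz and Ywhaq were highest there by less, and Sfn was not. The part of neuronal RNA in these changes was not tested. Ywhaq had the smallest change at 1 h (0.49 ± 0.20). At 4 h the range was from 0.24 for Ywhae to 1.54 for Sfn, a gene of epithelia that stayed at or below 6.28 CPM.

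The cAMP machinery gave no call either. Of 20 genes for adenylyl cyclases, protein kinase A subunits and its regulators, 19 were tested, with median changes of 0.33 and 0.35. The top value at both stages was Adcy8, a neuronal cyclase with 4.25 ± 1.97 at 1 h and 3.11 ± 1.93 at 4 h. It rested on 6.02, 4.05 and 4.75 CPM in the 3 libraries rich in neuron markers and was at 0 to 0.602 CPM in the others. At an unadjusted edgeR p under 0.05, 3 of the 19 were higher and 1 lower at 1 h (16.7% of all genes). Akap12, named after its values were seen, changed by 1.95 ± 0.52 at 1 h (edgeR adjusted p = 0.213). It held 249, 134 and 170 CPM in normal libraries, 526, 757 and 855 CPM at 1 h and 208, 252 and 739 CPM at 4 h. At the lower end stood Pkig, a protein kinase A inhibitor, with -1.24 ± 0.38 at 1 h (edgeR adjusted p = 0.232), and Adcy4, a cyclase of endothelium, with -1.12 ± 0.27 at 4 h (adjusted p = 0.162). Adcy4 held 59.9, 43.9 and 27.8 CPM in normal libraries and 20.9, 21.6 and 18.2 CPM at 4 h. The endothelial markers summed to 622 to 1477 CPM in normal libraries and 471 to 846 CPM at 4 h.

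Of 11 phosphodiesterases that break down cAMP none was called. Pde10a was at the top at both stages (2.85 ± 1.04 and 2.17 ± 1.02), again with its high values in the 3 libraries rich in neuron markers, and Pde4c and Pde7b were at the bottom with -0.61 and -0.64. Pde4b, named after its values were seen, held 22.7, 28.1 and 16.9 CPM in normal libraries, 42.9, 308 and 130 CPM at 1 h and 86.5, 74.4 and 105 CPM at 4 h. Pde4b is a known CREB target, and its change was 2.83 ± 0.62 at 1 h and 1.97 ± 0.60 at 4 h (edgeR adjusted p = 0.180 and 0.240). In the calcineurin list of 6 genes, Rcan1, a feedback inhibitor of the phosphatase, had the highest changes (0.82 ± 0.36 and 1.10 ± 0.36, adjusted p = 0.300 and 0.271), and Ppp3ca, a catalytic subunit, had the lowest (-0.15 and -0.46).

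Relatives of CREB and the acetyltransferases it recruits had medians of -0.12 at 1 h and -0.17 at 4 h over 8 genes. Creb3 was highest at 0.48 ± 0.25 and 0.39 ± 0.25, and the lowest were Crebbp with -0.28 at 1 h and Creb5 with -0.31 at 4 h. None of the 8 had an unadjusted p under 0.05 at either stage.

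**Figure D4:**
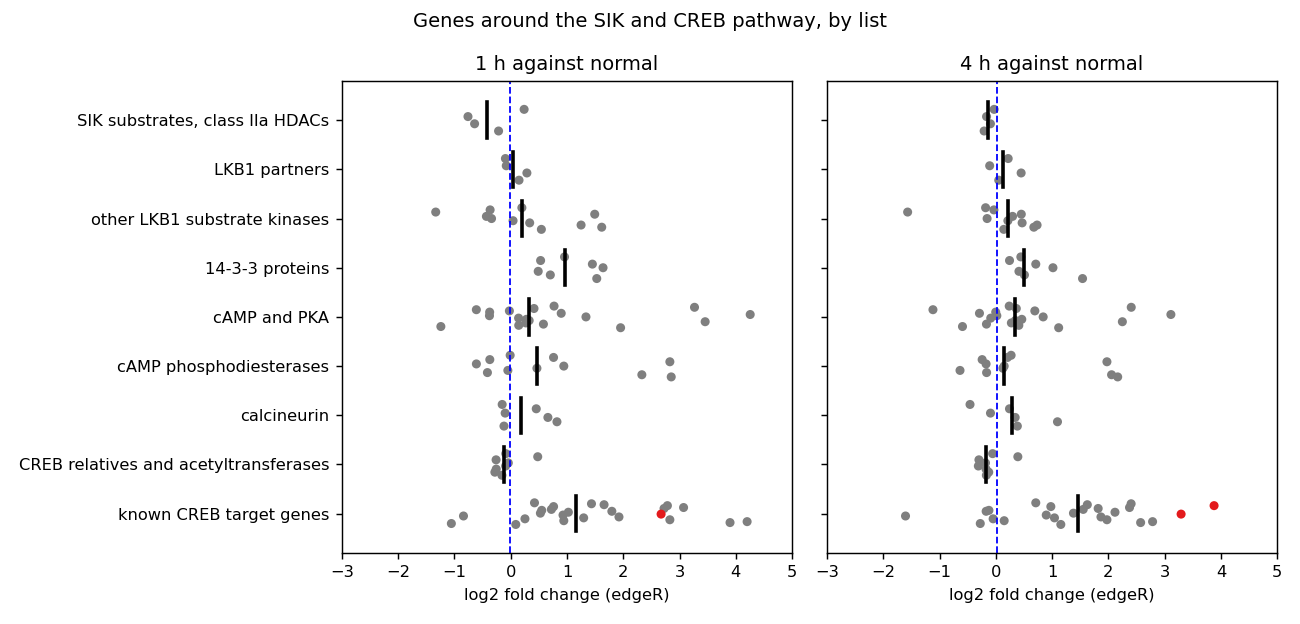
Log2 fold changes from normal of each tested gene in the 9 pathway lists at 1 h (left) and 4 h (right). Each point is a gene, red where called, black bars are list medians and the dashed line is the median of all genes. The list of known CREB targets has medians of 1.16 and 1.47. All lists were chosen with earlier results of these data known.

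The list of known CREB target genes stood furthest from 0 by its median. It was chosen with earlier results of these data known, so its values are a description. Of its 30 genes 24 were tested, with a median log2 fold change of 1.16 at 1 h and 1.47 at 4 h. At 1 h 1 was called, and 11 had an unadjusted p under 0.05, 10 of them higher than normal. At 4 h 2 were called, and of 14 by that measure 13 were higher. Over all genes 16.7% and 12.4% passed that measure in either direction. Nfil3, a bZIP repressor, rose at both stages, from 9.07, 13.9 and 14.4 CPM in normal libraries to 69.0, 89.8 and 79.1 CPM at 1 h and 123, 146 and 96.2 CPM at 4 h (2.67 ± 0.25 and 3.29 ± 0.26, edgeR adjusted p = 0.0164 and 0.00501). Its call at 1 h was lost in 5 of 9 fits that left out 1 library, those without any 1 of the normal libraries or without 1 h replicate 2 or 3 (adjusted p up to 0.161), and its call at 4 h was lost without normal replicate 2 (adjusted p = 0.0719). Nr4a1, an orphan nuclear receptor, rose at 4 h, with 112, 76.3 and 95.1 CPM in normal libraries and 1765, 1623 and 776 CPM at 4 h (3.88 ± 0.46, adjusted p = 0.0316). That call was kept in 2 of 9 such fits, those without 1 h replicate 2 and without 4 h replicate 3, and lost in the other 7 (adjusted p up to 0.193), with a change between 3.64 and 4.17. At 1 h Nr4a1 was at 650, 905 and 396 CPM (2.78 ± 0.43, adjusted p = 0.117). The lowest value at 4 h was that of Cited2, a transcriptional cofactor that restrains HIF-1, with 41.9, 52.1 and 52.4 CPM in normal libraries and 10.8, 12.8 and 24.5 CPM at 4 h (-1.60 ± 0.32, adjusted p = 0.1).

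Some genes in this list were high in the libraries rich in neuron markers, and others varied among the normal libraries. Sst, the top value at 1 h (4.20 ± 2.09), was at 24.3, 19.4 and 16.6 CPM in the 3 libraries rich in neuron markers and at or below 1.29 CPM in the other 6. Th, a neuron marker as well as a CREB target, was at 579 to 722 CPM in those 3 and at or below 68.4 CPM elsewhere. Fos, an immediate early gene, ran from 5.21 to 278 CPM among the normal libraries alone, and its change at 1 h was 0.42 ± 1.18. Ccna2, the lowest at 1 h (-1.05 ± 0.62), never exceeded 1.57 CPM. Many genes of the list also answer to signals other than CREB, and CREB activity was not measured here. Fos, Fosb, Junb, Egr1, Dusp1, Nr4a2, Atf3, Th and Btg2 were named after their values were seen.

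**Figure D5:**
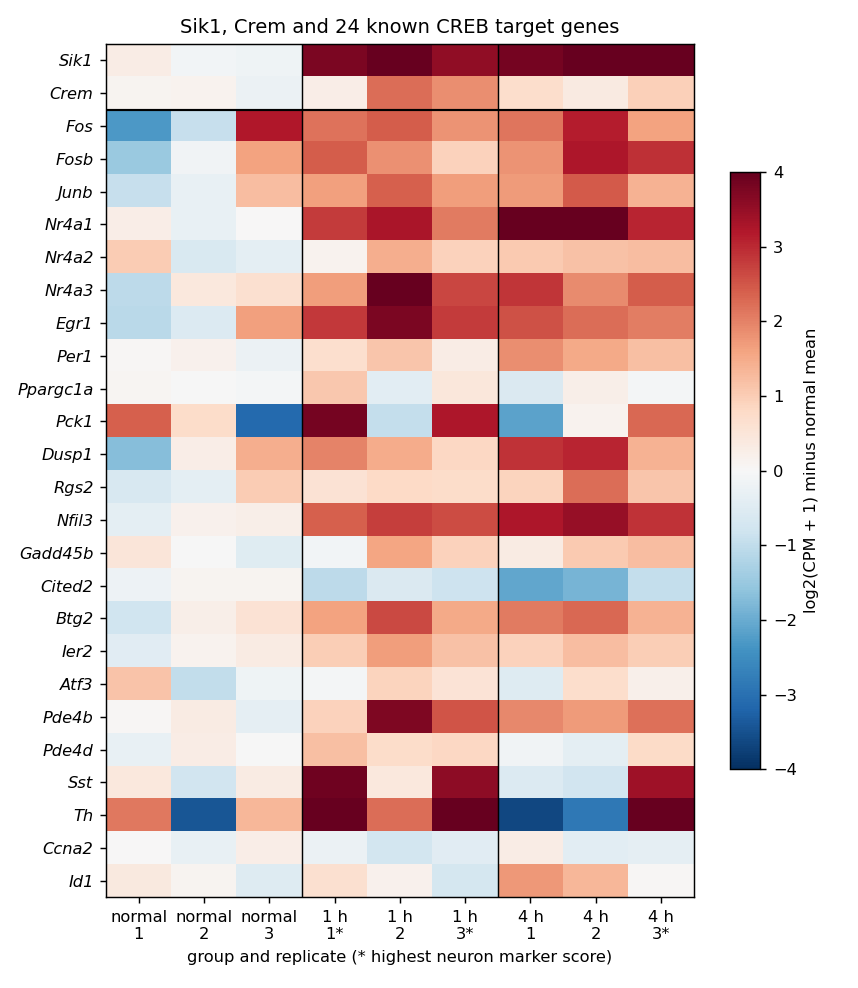
Heat map of log2(CPM + 1) minus the normal mean for Sik1 and Crem (above the line) and 24 known CREB target genes in the 9 libraries, with the colour scale cut at -4 and 4. Nfil3, Nr4a1 and Btg2 are red in all 6 ischemic libraries and Cited2 is blue in all 6. Sst and Th are darkest red in the 3 starred libraries, those with the highest neuron marker score. Th is deep blue in normal replicate 2 and in 4 h replicates 1 and 2.

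Genes whose pattern was most like that of Sik1 were ranked by Pearson's r of log2 CPM over the 9 libraries. The ranks cover only the characterised symbols among 11280 genes with a mean of at least 5 CPM. The values fall into a normal and an ischemic cluster, so r over all 9 mostly reflects that split, and r over the 6 ischemic libraries is given beside it, both as descriptions. Nfkbia, the inhibitor of NF-κB that NF-κB itself induces, was first with r = 0.994 over 9 and 0.975 over the 6 ischemic libraries. Its level was 125, 94.1 and 103 CPM in normal libraries, 495, 659 and 483 CPM at 1 h and 514, 891 and 690 CPM at 4 h. Psma6, a proteasome subunit, was next (0.983 over 9, 0.860 over 6), with 62.5 to 71.2 CPM in normal and 97.7 to 112.7 CPM in ischemic libraries. In the RefSeq gene table Psma6 and Nfkbia are direct neighbours without overlap. Mfsd2a, a lipid transporter, and Apold1, an endothelial gene, followed over 9 libraries (0.981 and 0.980) but had r of 0.169 and 0.223 over the 6. Nfil3 ranked number 5 (0.971 and 0.691). Crem was ranked number 957 among these symbols, the highest of the other 8 members, with r = 0.608 over 9 and -0.267 over the 6 ischemic libraries. The remaining members ran from 0.372 for Sik3 to -0.633 for Creb1 over 9 libraries.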

How the data were processed

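RNA of 9 superior mesenteric arteries was sequenced, 3 per group, after Trizol extraction and a standard library protocol on an Illumina HiSeq X instrument per the labels. The authors deposited whole-number counts per gene symbol, not normalized. The submitters' processing notes name HISAT2; the counting program, genome build, annotation and strand setting are not given in the sources used here. The study's methods also describe Agilent arrays and a random variance F-test, and which of its steps led to the deposited counts is not clear. Of 37203 symbols, 13156 had no count. Depth was 13114273 to 15504240 counts per library, so 1 CPM is about 13 to 15 counts before scaling.

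The 9 genes and all lists were chosen with earlier results of these data known. In R 4.3.3 with edgeR 4.0.16, genes were filtered with filterByExpr, libraries scaled by TMM (factors 0.814 to 1.22), and the quasi-likelihood test fitted to all 9 libraries with group as the term. P-values were adjusted over 15482 genes by the Benjamini-Hochberg method. A gene was called at adjusted p under 0.05 and a fold over 1.5, the study's thresholds. The SE of a log2 fold change is its size divided by the square root of F. Log2 CPM used a prior count of 2. Shares were compared by exact permutation (scipy 1.17.1) with exact binomial intervals of 95%. DESeq2 1.42.0 was an alternative, beside other scaling, no filter, only the 2 groups compared, a replicate block, marker scores as covariates and leaving out each library. Named were all 9 members, called genes and the highest and lowest change of each list at each stage, and the 5 characterised genes most like Sik1. The series description gives 3 rats per group; where libraries did not come from separate rats, p-values measure technical spread. No 2 libraries were alike within sampling noise (lowest chi-square per degree of freedom 23.2). Promoters were read from a RefSeq table of GRCr8, in which all 9 genes matched.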

Additional observations from a re-analysis of the deposited data

How the results depend on the processing

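Of the 9 genes, 1 was called at 1 h in the main test, 2 with DESeq2 and 0 to 1 when 1 library was left out (0 without normal replicate 2 or 3). At 4 h 1 was called in every setting, and between the stages 0. The gene called in the main test was Sik1, which was chosen for these contrasts, so nothing is read from its call. Over all genes, 9 were called at 1 h and 14 at 4 h; DESeq2 called 658 and 557, a fit of only the 2 groups 4 and 4, the smooth muscle score as a covariate 35 and 83, and leaving out a library 0 to 11 and 1 to 14. The nerve score as a covariate gave 111 at 4 h and the replicate block 7. Of the pathway genes, 1 was called at 1 h and 2 at 4 h; DESeq2 called 9 and 10, only the 2 groups 0 and 1, the smooth muscle score 2 and 4, and leaving out a library 0 to 1 and 0 to 3. At 4 h the nerve score gave 5 and the replicate block 1. The cause of these shifts was not tested. Without the 3 libraries richest in neuron markers, a setting chosen after seeing the data, 7 genes were called at 1 h and 10 at 4 h. The 1 h group is then 1 library, 1 h replicate 2, assumed to vary like the other groups, so its 1 h values describe that library. Same-numbered libraries had correlations of their deviations from -0.651 to 0.660, over 0.1 in 4 of 9 pairs. Libraries of different numbers reached similar values, such as 0.648 for normal replicate 2 and 4 h replicate 1, so this check cannot decide on pairing. The numbers were not taken to pair the rats, which were sacrificed at the end of ischemia per the study's methods. Under the replicate block Sik1 had log2 fold changes of 3.95 and 4.28, given as a description.

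Some changes of members turned sign, among them those of Crtc1 and Crtc3 at 1 h (-0.33 and -0.48 in the main test). With the nerve score the 1 h values were 0.16 (Stk11), 0.26 (Crtc1), 0.14 (Crtc2) and 0.048 (Crtc3), and the 4 h to 1 h values -0.050 (Stk11) and -0.13 (Crtc2). Without the 3 neuron-rich libraries, with 1 h replicate 2 alone at 1 h, they were 0.39 (Stk11) and 0.17 (Crtc2) at 1 h, and -0.059 and -0.034 between the stages. By library size only they were -0.090 (Sik3), -0.066 (Stk11) and -0.20 (Crtc2) at 4 h, and -0.075 (Crtc2) and -0.11 (Creb1) between the stages. With the smooth muscle score they were -0.043 (Stk11) and -0.081 (Crtc2) at 4 h and -0.0015 (Creb1) between the stages. When 1 library at a time was left out, the 1 h values ran from -0.0075 to 0.27 (Sik3), -0.53 to 0.0068 (Stk11) and -0.28 to 0.017 (Crtc2). The 4 h values ran from -0.033 to 0.24 (Sik3), -0.052 to 0.31 (Stk11), -0.016 to 0.65 (Crtc1) and -0.14 to 0.17 (Crtc2). Between the stages they ran from -0.15 to 0.13 (Sik3) and -0.052 to 0.26 (Creb1). Levels per coding length were not run, since no transcript or protein lengths were used here.

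With 3 rats a group, changes of the size of most members were not detectable, and a missed threshold does not show that levels were alike. The common coefficient of variation over all genes tested was 51.6%. It is not the spread of the members, which is shown by their own values and SEs. RNA levels say nothing of kinase activity, phosphorylation or location of the proteins.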
